A study of Rattus norvegicus with 12 samples.

Results

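Faecal communities of rats with experimental subarachnoid haemorrhage that had been given tetrandrine (SAH+Tet, 3 libraries) were compared with those of sham-operated rats (Sham, 3 libraries), to show which bacterial lineages lay at the sham level in the treated group and which did not. These 6 libraries were taken from a series of 12 libraries in 4 groups of 3, by their treatment labels. No library of haemorrhage alone, and none of haemorrhage with tetrandrine and ABX, entered the comparison. Each library is the 16S rRNA gene, amplified from faecal DNA and sequenced, and the values are read counts for each exact 16S sequence, called an amplicon sequence variant (ASV). Reads were summed by family and by genus, and a share is a percentage of all reads of a library after Eukaryota were left out.

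The labels of the tetrandrine group combine the haemorrhage model with the drug, and no sham group given tetrandrine is among the samples used here. Effects of the haemorrhage and of tetrandrine on the distance from Sham therefore cannot be told apart. The sources used here do not give the strain, sex, age, drug dose, housing or time from surgery to sampling. Nothing in them says that each library came from a separate animal, so a p-value here measures the spread between libraries, which may be technical. The libraries of a group are always listed in the order 1, 2, 3, which is only their numbering.

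The hindgut of a rat holds mainly anaerobes: Clostridia and Bacteroidales that ferment plant fibre to short-chain fatty acids, lactobacilli that make lactic acid, and smaller lineages that live on mucus, sulfate or hydrogen. A subarachnoid haemorrhage is a bleed into the fluid space around the brain. Tetrandrine is an alkaloid from a climbing plant, and it blocks calcium channels. Read shares add up to a fixed total, so a lineage can take a lower share because others take more, and a share says nothing of the number of cells.

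Depth was 495885, 498430 and 519889 reads for Sham 1 to 3, and 458010, 516810 and 227299 for SAH+Tet 1 to 3. A count of 0 allowed a share of up to 0.00132% in SAH+Tet 3, the shallowest library, and of 0.000577% to 0.000655% in the other 5 (3 reads). PCR copies a molecule many times over, so these limits describe counting error and nothing else. Libraries of 1 group differed by far more than counting error, with a chi-square per degree of freedom of 286 to 837 over genera. SAH+Tet 3 stood apart in depth, in ASV richness and in 13 families described below, so results that rest on it are given with and without it.

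Families that held most of the reads had mean shares in SAH+Tet inside the range of the Sham libraries, and a smaller set of families lay wholly outside it. Of 163 families found, 76 had at least 10 reads in at least 3 of the 6 libraries and were tested. In 34 of them (44.7%) the mean share in SAH+Tet lay between the lowest and the highest Sham library, and these families held 66.2% of reads in Sham and 61.1% in SAH+Tet. In 20 (26.3%) the libraries of the groups did not overlap: 7 (9.21%) lay higher in SAH+Tet and 13 (17.1%) lower. In the remaining 22 (28.9%) the libraries overlapped while the SAH+Tet mean lay outside the Sham range. Without SAH+Tet 3, 36.8% of families did not overlap (12 higher, 16 lower) and 42 had their mean inside the Sham range, an alternative chosen after the data were seen. Groups that do not overlap cannot come to overlap when a library is left out, so 36.8% and 26.3% are not on an equal footing. The 13 lower families made the larger difference in reads. They held 7.42% of Sham and 1.91% of SAH+Tet reads, and the 7 higher ones 0.333% and 0.504%.

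No family passed the main test, an edgeR quasi-likelihood fit with a Benjamini-Hochberg adjusted p below 0.05 (0 of 76, 0.0%). The lowest adjusted p was 0.151, and 14 families (18.4%) had an unadjusted p below 0.05. DESeq2 called 14 families, limma on centred log-ratio values 2, and limma-trend on log2 CPM (reads scaled to a common library size) 0. Without SAH+Tet 3 edgeR called 7: Akkermansiaceae, Corynebacteriaceae, Micrococcaceae, Moraxellaceae, Staphylococcaceae, the candidate lineage WPS-2 and bacteria with no named phylum. A p that misses the threshold does not show that a family was at the sham level. The 95% intervals from limma-trend excluded a difference of 2-fold either way for 4 families (5.26%), held 0 but ran past 2-fold for 59 (77.6%) and left out 0 for 13 (17.1%). Scaling by library size in place of TMM shifted the median difference of all families by 0.26 on the log2 scale, so small differences have no firm sign.

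**Figure D1:**
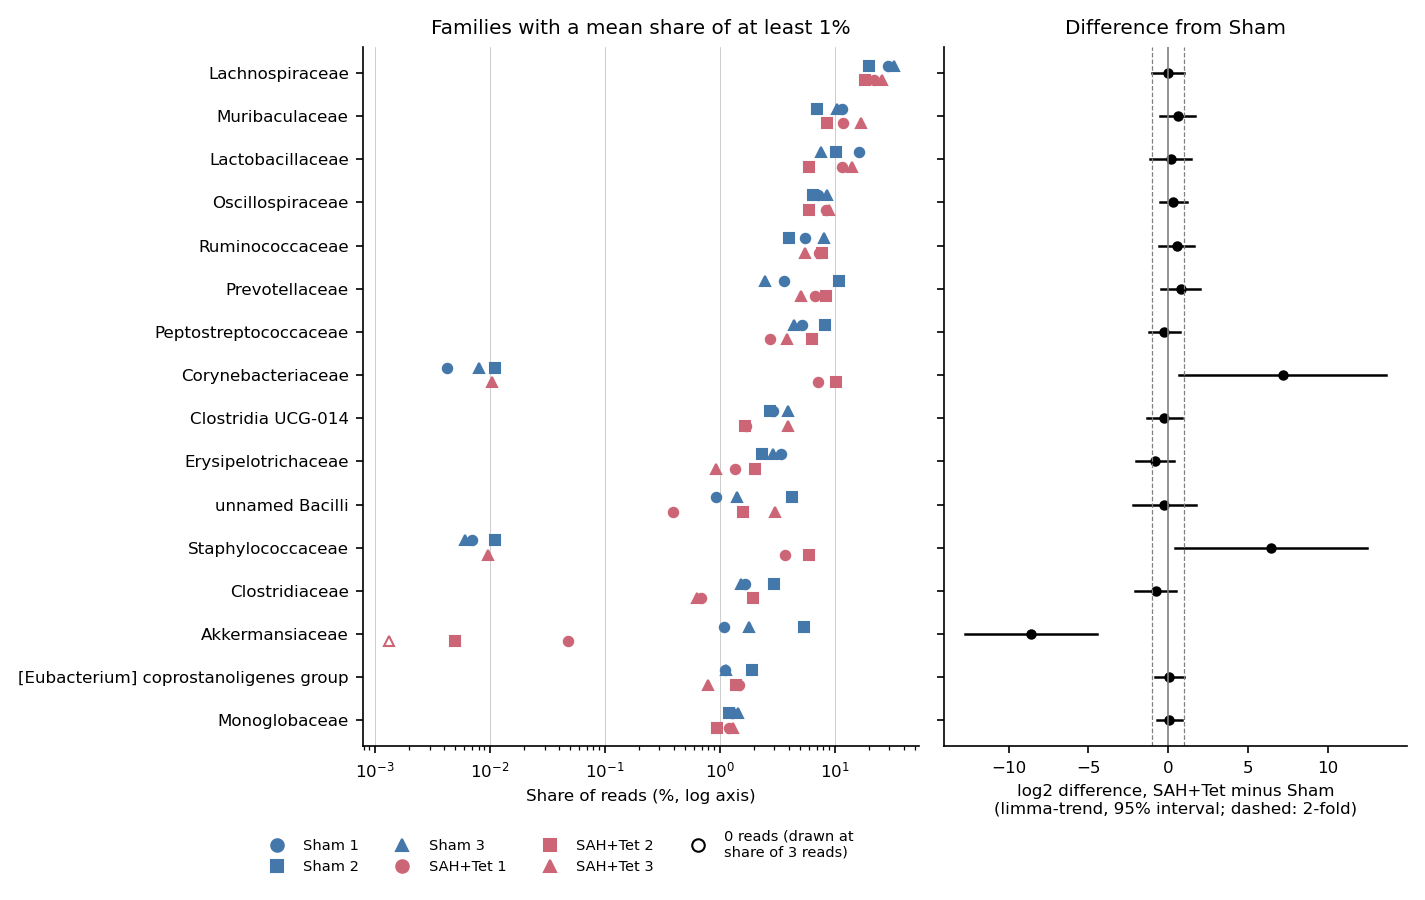
Left, share of reads (log axis) of the 16 families with a mean share of at least 1% in each of the 6 libraries; right, the log2 difference of SAH+Tet from Sham in limma-trend with its 95% interval, dashed lines marking 2-fold. Lachnospiraceae, Lactobacillaceae and Oscillospiraceae overlap between the groups, Akkermansiaceae is lower in each SAH+Tet library, and Corynebacteriaceae and Staphylococcaceae are high in SAH+Tet 1 and 2 while SAH+Tet 3 sits among the Sham libraries.

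The fibre-fermenting Clostridia made up the largest block in both groups. Lachnospiraceae, of which many members make butyrate from plant polysaccharides, held 29.0%, 19.9% and 32.6% of reads in Sham 1 to 3 and 21.8%, 18.2% and 26.0% in SAH+Tet 1 to 3. The groups overlapped, and the interval of the log2 difference ran from -1.03 to 0.98. Oscillospiraceae, a related family of slow-growing fermenters, held 7.11%, 6.46% and 8.53% of reads in Sham 1 to 3 and 8.47%, 5.94% and 8.91% in SAH+Tet 1 to 3, with an interval of -0.52 to 1.17. Ruminococcaceae, which hold cellulose and starch degraders, took 5.54%, 4.05% and 8.12% against 7.33%, 7.80% and 5.56%. For all 3 families the SAH+Tet mean lay inside the Sham range and a 2-fold difference in at least 1 direction was not excluded.

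The lactobacilli and the Bacteroidales families of at least 1% mean share also overlapped with Sham. Lactobacillaceae, which ferment sugars to lactic acid, held 16.2%, 10.2% and 7.66% of reads in Sham 1 to 3 and 11.7%, 6.00% and 14.3% in SAH+Tet 1 to 3. Their lowest library was SAH+Tet 2 and their highest Sham 1, and the interval was -1.12 to 1.41. Muribaculaceae, the main Bacteroidales family of rodent guts, held 11.6%, 7.07% and 10.6% of reads in Sham 1 to 3 and 11.8%, 8.52% and 17.1% in SAH+Tet 1 to 3. SAH+Tet 3 was above every Sham library and SAH+Tet 1 just above the highest of them, while SAH+Tet 2 lay within their range. Prevotellaceae, degraders of plant polysaccharides, ranged from 2.51% to 11.0% in Sham and from 5.09% to 8.44% in SAH+Tet, inside the Sham range.

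The families whose intervals excluded 2-fold were of middling or low abundance. The [Eubacterium] coprostanoligenes group, named for a bacterium that reduces cholesterol to coprostanol, held 1.10%, 1.90% and 1.14% of reads in Sham 1 to 3 and 1.47%, 1.38% and 0.800% in SAH+Tet 1 to 3, with an interval of -0.81 to 0.96. Monoglobaceae, a family of pectin degraders, held 1.32% ± 0.123 in Sham and 1.15% ± 0.191 in SAH+Tet (SD, n = 3 each), with an interval of -0.73 to 0.85. Pseudomonadaceae, aerobic Gram-negative bacteria, held 0.994% ± 0.130 in Sham and 0.860% ± 0.0424 in SAH+Tet (SD, n = 3 each), and Anaerovoracaceae, anaerobic Clostridia, 0.321% ± 0.0559 in Sham and 0.261% ± 0.0441 in SAH+Tet (SD, n = 3 each). The libraries of the groups overlapped in all 4. In the last 3 the SAH+Tet mean lay slightly below the lowest Sham library, within these bounds. The bounds rest on TMM scaling, and none were computed with library-size scaling. That scaling moved the edgeR log2 fold change of the [Eubacterium] coprostanoligenes group from 0.14 to -0.18. It moved that of Monoglobaceae from 0.03 to -0.19.

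Akkermansiaceae were the abundant family farthest below Sham. The family, which here is the genus Akkermansia, lives on the mucin of the gut's mucus layer. It held 1.09%, 5.44% and 1.80% of reads in Sham 1 to 3 and 0.0478%, 0.00503% and 0% in SAH+Tet 1 to 3. Every SAH+Tet library was below every Sham library, and SAH+Tet 3 held no read of it. The group means were 2.77% ± 2.33 in Sham and 0.0176% ± 0.0263 in SAH+Tet (SD, n = 3 each), a 157-fold difference (log2 fold change -6.84 ± 1.93 (SE), edgeR adjusted p = 0.151). The size rested on single libraries: the means differed 1103-fold without SAH+Tet 1 and 81.9-fold without Sham 2. Erysipelotrichaceae, Firmicutes of the mammalian gut, were the other abundant family without overlap, at 3.44%, 2.34% and 2.94% against 1.35%, 2.03% and 0.933%, a 2.02-fold difference of the means (log2 fold change -0.80 ± 0.51 (SE), edgeR adjusted p = 0.493).

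Smaller families also lay apart from Sham on the low side. Bifidobacteriaceae, which make acetate and lactate from sugars, held 0.677%, 0.360% and 0.237% of reads in Sham 1 to 3 and 0.129%, 0.0418% and 0.0123% in SAH+Tet 1 to 3, and the Sham mean was 6.97-fold the SAH+Tet mean (15.7-fold without SAH+Tet 1). Marinifilaceae, the Bacteroidales family of Odoribacter and Butyricimonas, held 0.169%, 0.203% and 0.205% against 0.0834%, 0.0677% and 0.106%. The Clostridia vadinBB60 group, known from sequences alone, held 0.325%, 0.276% and 0.317% against 0.138%, 0.126% and 0.215%. All 3 had the Sham libraries above the SAH+Tet libraries, with edgeR adjusted p-values of 0.227, 0.270 and 0.456. On the high side Butyricicoccaceae, a family of butyrate makers, held 0.340%, 0.274% and 0.243% against 0.409%, 0.424% and 0.355%, and Enterobacteriaceae, facultative anaerobes such as Escherichia, 0.00807%, 0.0114% and 0.00154% against 0.0223%, 0.0151% and 0.0163%.

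A block of 13 families divided the SAH+Tet libraries among themselves. They were picked out after their values were seen, as families with at least 0.005% of reads and at least 10 times the share of every other library in both SAH+Tet 1 and SAH+Tet 2, so their values are a description. Together they held 0.0139%, 0.0263% and 0.0204% of Sham reads, and 13.7%, 21.0% and 0.0251% of SAH+Tet reads. SAH+Tet 3 lay among the Sham libraries, and the other 2 were far above them.

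The block was made mostly of Gram-positive bacteria that grow with oxygen and are common on skin, in bedding and in feed. Corynebacterium, rod-shaped skin Actinobacteriota, held 0.00423%, 0.0112% and 0.00808% of reads in Sham 1 to 3 and 7.19%, 10.3% and 0.0106% in SAH+Tet 1 to 3. Staphylococcus, cocci of skin and nose, held 0.00706%, 0.0112% and 0.00616% of reads in Sham 1 to 3 and 2.36%, 3.92% and 0.00704% in SAH+Tet 1 to 3. In both genera SAH+Tet 3 lay within the Sham range. Facklamia, cocci related to Aerococcus, had no read in Sham and held 1.53%, 2.59% and 0.000880% of SAH+Tet reads. Jeotgalicoccus, relatives of staphylococci, also had no Sham read and held 1.38%, 2.09% and 0.00264%. Atopostipes, Brachybacterium, Psychrobacter and Brevibacterium were found in SAH+Tet 1 and 2 alone, at 0.0651% to 0.624% of reads.

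These lineages came as many sequences rather than 1. The 13 families held 154 ASVs, of which 133 had no Sham read, 144 had no read in SAH+Tet 3 and 58 were found in both SAH+Tet 1 and SAH+Tet 2. The filter on low counts was passed by 6 of the 154, since an ASV seen in 2 libraries cannot reach 10 reads in 3. The most abundant of the 6, Corynebacterium ASV 3, held 0%, 0.00241% and 0% against 5.71%, 8.16% and 0.00616%, and Staphylococcus ASV 65 0.00181%, 0.00241% and 0% against 0.820%, 1.44% and 0.00308%; an ASV is named by its genus and its place in the deposited table. In the fit of all 6 libraries Corynebacterium had a log2 fold change of 9.58 ± 2.35 (SE, edgeR adjusted p = 0.149) and Staphylococcus of 8.03 ± 2.08 (adjusted p = 0.158). Corynebacteriaceae, Moraxellaceae, Staphylococcaceae and WPS-2, called by edgeR when SAH+Tet 3 was left out, belong to this block, as do the genera Corynebacterium and Staphylococcus. They were picked for being high in SAH+Tet 1 and 2, so those calls support nothing. What set SAH+Tet 1 and 2 apart from SAH+Tet 3 was not tested. With these families left out of every library, an alternative also chosen after the data were seen, 0 families and 0 genera passed edgeR (11 and 21 at an unadjusted p below 0.05). The families without overlap were then 9 higher and 10 lower, in place of 7 and 13.

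**Figure D2:**
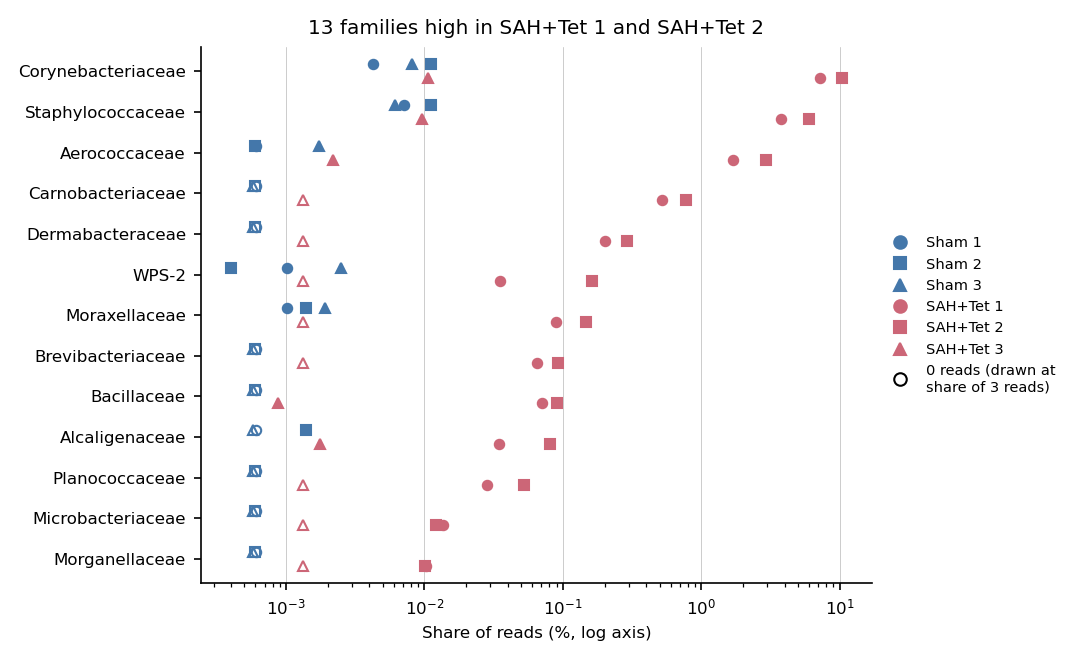
Share of reads (log axis) of the 13 families in each of the 6 libraries; open symbols are libraries with 0 reads, drawn at the share of 3 reads. SAH+Tet 1 and SAH+Tet 2 stand to the right of every other library in each family, and SAH+Tet 3 sits with the Sham libraries or at 0.

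At the genus level 154 of 327 features were tested, a feature being a genus or, where no genus was named, the deepest named rank. In 65 (42.2%) the SAH+Tet mean lay inside the Sham range, in 49 (31.8%) the libraries overlapped with the mean outside it, and in 40 (26.0%) they did not overlap, 17 (11.0%) higher and 23 (14.9%) lower in SAH+Tet. With the 13 families left out of all libraries 22 were higher and 18 lower. Without SAH+Tet 3 there were 25 and 28, where fewer libraries make a lack of overlap easier. No genus passed the edgeR test (0 of 154, 0.0%; lowest adjusted p = 0.126), and 26 (16.9%) had an unadjusted p below 0.05. DESeq2 called 17 genera, limma-trend 1 and limma on centred log-ratio values 1, the [Bacteroides] pectinophilus group in both. Without Sham 2 edgeR called 2 (the [Bacteroides] pectinophilus group and Lachnospiraceae UCG-010), and without SAH+Tet 3 it called 3 (Corynebacterium, Staphylococcus and bacteria with no named phylum).

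Most of the abundant genera overlapped with Sham. Lactobacillus held 16.2%, 10.2% and 7.66% of reads in Sham 1 to 3 and 11.7%, 5.98% and 14.3% in SAH+Tet 1 to 3, and Ruminococcus, a degrader of resistant starch and cellulose, 2.93%, 2.12% and 4.82% against 4.07%, 5.74% and 2.88%. Both had their SAH+Tet mean inside the Sham range, as had Lachnospiraceae with no named genus (16.0%, 10.5% and 20.4% against 11.9%, 6.79% and 17.8%). UCG-005, a genus of Oscillospiraceae, held 1.52%, 2.44% and 2.33% against 2.47%, 1.77% and 4.02%, with SAH+Tet 1 and 3 above every Sham library. Lachnospiraceae NK4A136 group, a fermenter of the rodent gut, held 4.56%, 5.36% and 4.27% against 4.70%, 7.38% and 4.78%, and only SAH+Tet 2 lay above the Sham range. Romboutsia, a clostridial genus of the small intestine, held 5.17%, 8.23% and 4.48% against 2.76%, 6.37% and 3.85%, with SAH+Tet 1 and 3 below the Sham range and SAH+Tet 2 inside it. The genera with an interval inside 2-fold were 5 (3.25%): Oscillospiraceae with no named genus, the [Eubacterium] coprostanoligenes group, Monoglobus, Pseudomonas and UCG-009. For 118 (76.6%) the interval held 0 and ran past 2-fold, and for 31 (20.1%) it left out 0. Of the 5, Oscillospiraceae with no named genus were the most abundant, at 3.11% ± 0.609 in Sham and 3.04% ± 0.614 in SAH+Tet (SD, n = 3 each) and an interval of -0.73 to 0.81.

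The genera farthest below Sham, beside Akkermansia, came from several phyla. Lachnospiraceae UCG-010, a fermenter known from its sequence, held 0.150%, 0.0373% and 0.150% of reads in Sham 1 to 3 and 0.00895%, 0.00967% and 0.00440% in SAH+Tet 1 to 3. Its highest SAH+Tet library was below its lowest Sham library, and the means differed 14.6-fold (log2 fold change -3.84 ± 0.76 (SE), edgeR adjusted p = 0.126). Faecalibaculum, an Erysipelotrichaceae genus described from mouse faeces, held 0.190%, 0.0379% and 0.0502% against 0.00393%, 0.00271% and 0.0167%, an 11.9-fold difference (log2 fold change -3.52 ± 1.14 (SE), edgeR adjusted p = 0.244), which became 5.66-fold without Sham 1 and 27.9-fold without SAH+Tet 3. Methanosphaera, an archaeon that makes methane from methanol and hydrogen, held 0.0179%, 0.0797% and 0.144% against 0.0159%, 0.000967% and 0.00792%, a 9.74-fold difference (log2 fold change -3.21 ± 1.16 (SE), edgeR adjusted p = 0.244). Its Sham 1 and SAH+Tet 1 values were close to each other, and the means differed 18.1-fold without SAH+Tet 1 and 5.90-fold without Sham 3. Candidatus Saccharimonas, very small bacteria that live attached to other bacteria, held 0.242%, 0.266% and 0.442% against 0.154%, 0.111% and 0.0330%, a 3.19-fold difference.

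Bacteroidales genera were found on both sides of Sham. Odoribacter, which makes short-chain fatty acids, held 0.148%, 0.178% and 0.187% of reads in Sham 1 to 3 and 0.0159%, 0.0439% and 0% in SAH+Tet 1 to 3, and Barnesiella, a mutualist of the healthy rodent gut, 0.0581%, 0.117% and 0.0331% against 0.0146%, 0.00677% and 0.0123%. Both lay below Sham in every library, 8.58-fold and 6.16-fold by their means (21.5-fold for Odoribacter without SAH+Tet 2, 4.06-fold for Barnesiella without Sham 2), with edgeR adjusted p-values of 0.352 and 0.149. The Bacteroidales RF16 group and reads named no deeper than the class Bacteroidia were lower as well. The former held 0.203%, 0.178% and 0.0464% against 0.0251%, 0.0199% and 0%, and the latter 0.179%, 0.110% and 0.214% against 0.00502%, 0.0217% and 0%. Alloprevotella, a saccharide fermenter of the family Prevotellaceae, lay on the other side, at 0.777%, 1.65% and 0.646% of reads in Sham 1 to 3 and 1.91%, 3.08% and 2.93% in SAH+Tet 1 to 3. Its lowest SAH+Tet library exceeded its highest Sham library, and the means differed 2.58-fold (log2 fold change 1.48 ± 0.50 (SE), edgeR adjusted p = 0.244).

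Lachnospiraceae genera were also found on both sides of Sham. Roseburia, flagellated butyrate makers, held 3.21%, 1.91% and 2.19% of reads in Sham 1 to 3 and 1.39%, 1.02% and 0.365% in SAH+Tet 1 to 3, below Sham in every library and 2.63-fold lower by the means (log2 fold change -1.40 ± 0.56 (SE), edgeR adjusted p = 0.269). The [Bacteroides] pectinophilus group, Lachnospiraceae that ferment pectin, held 0.00222%, 0.0261% and 0.00462% of reads in Sham 1 to 3 and 0.723%, 0.508% and 0.741% in SAH+Tet 1 to 3. Its SAH+Tet libraries lay close together and all far above Sham, 59.9-fold by the means (log2 fold change 6.04 ± 1.11 (SE), edgeR adjusted p = 0.126). Sham 2 held most of the Sham reads of the group, and without it the means differed 192-fold. Lachnospiraceae NK4B4 group held 0.00222%, 0% and 0.00481% against 0.0692%, 0.0315% and 0.118%, and ASF356, a Clostridium first kept in a defined mouse flora, 0.0173%, 0.0219% and 0.0117% against 0.120%, 0.0431% and 0.0972%, 31.1-fold and 5.11-fold higher by the means (65.7-fold for Lachnospiraceae NK4B4 group without Sham 3). Acetatifactor, an acetate and butyrate maker first isolated from a mouse, had the tightest Sham values of these, 0.0391%, 0.0403% and 0.0383% against 0.0686%, 0.0577% and 0.0796%. The SAH+Tet reads of Lachnospiraceae NK4B4 group came from different ASVs. Its ASV 1113 held 0.0485%, 0.0315% and 0% in SAH+Tet 1 to 3, and its ASV 1450 0%, 0% and 0.118%.

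The remaining genera above Sham were small. Anaerotruncus, a fermenter of the family Ruminococcaceae, held 0%, 0.0313% and 0.0202% against 0.0830%, 0.121% and 0.198%, and the [Eubacterium] nodatum group 0.0224%, 0.0381% and 0.0437% against 0.103%, 0.0724% and 0.0559%. In both, each SAH+Tet library was above each Sham library, with edgeR adjusted p-values of 0.358 and 0.244. Of the 17 genera higher in SAH+Tet, 7 reached a mean share of 0.05% in either group, and these 7 are the ones named here.

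**Figure D3:**
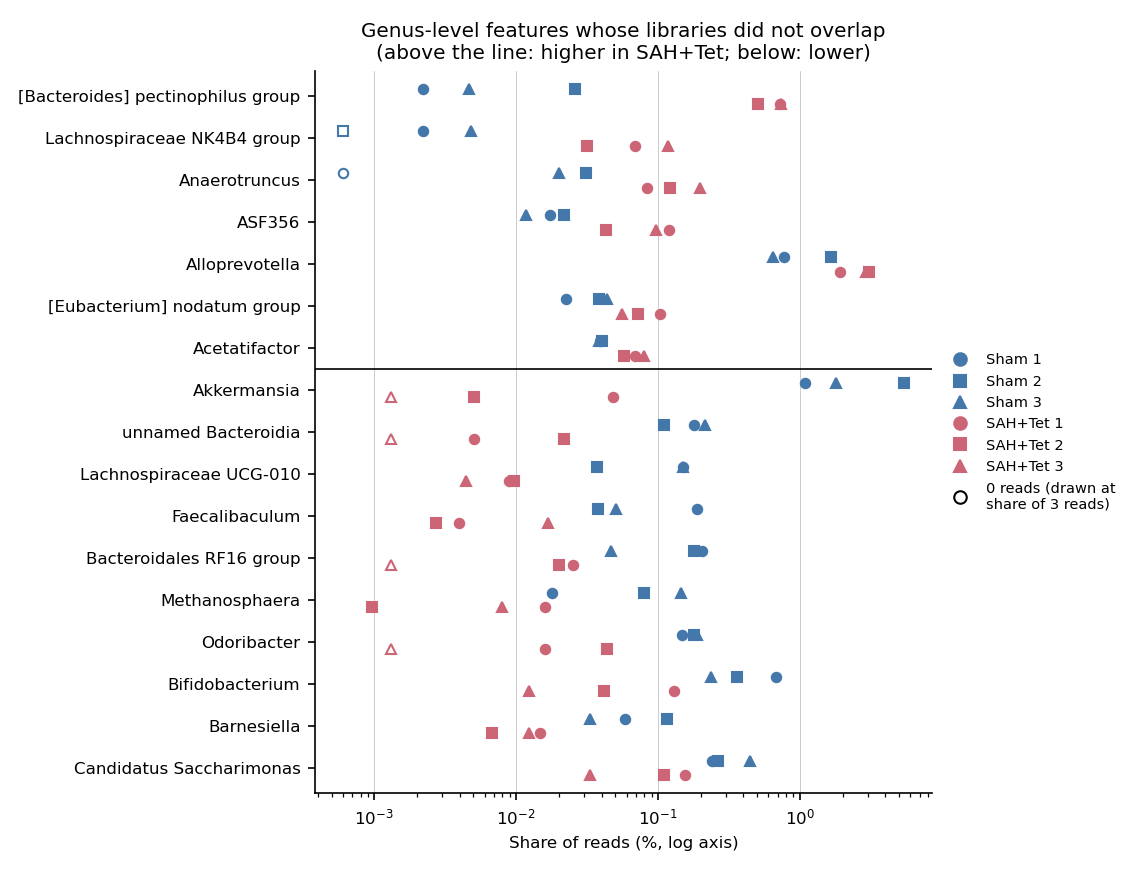
Share of reads (log axis) in each library for the 17 genus-level features whose libraries did not overlap and whose higher group averaged at least 0.05% (7 higher, above the line; the 10 with the largest log2 fold change on the low side, below it); open symbols are 0 reads, drawn at the share of 3 reads. The gap between groups is widest for Akkermansia and the [Bacteroides] pectinophilus group and narrow for Methanosphaera and Alloprevotella.

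Genera were also grouped by what they do. Each list is read against all 154 tested genera, of which 26.0% lay without overlap (11.0% higher, 14.9% lower), 42.2% had their mean in the Sham range, and the median log2 fold change was -0.05. Of 19 tested genera of short-chain fatty acid producing Clostridia, 0 passed edgeR, 3 lay above Sham without overlap (Intestinimonas, Anaerotruncus and Acetatifactor), 1 below (Roseburia), and 10 had their mean in the Sham range, beside 42.2% of all genera. Their summed share was 15.8% ± 3.33 in Sham and 14.4% ± 3.18 in SAH+Tet (SD, n = 3 each), and their median log2 fold change was 0.33. The list of Bacteroidales did not hold the Bacteroidales RF16 group, which lay lower as given above. Of the 15 tested genera on the list 0 passed, 1 lay higher (Alloprevotella), 2 lower (Odoribacter and Barnesiella) and 5 had the mean in range. Over all genera 26.0% lay without overlap and 42.2% in range, and the median of the 15 was 0.43. Their summed share ran from 14.3% to 20.1% in Sham and from 17.99% to 23.4% in SAH+Tet. SAH+Tet 1 and 2 lay above every Sham library in Prevotella and inside the Sham range in Prevotellaceae UCG-003, both degraders of plant fibre, and SAH+Tet 3 was the lowest library in both.

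The 4 tested lactic acid bacteria and bifidobacteria were 3 with their mean inside the Sham range and an interval past 2-fold (Lactobacillus, Streptococcus with 0.0718%, 0.174% and 0.108% against 0.0880%, 0.0826% and 0.155%, and Lactococcus with 0.0119%, 0.0132% and 0.00327% against 0.0277%, 0.00174% and 0.00704%) and Bifidobacterium, which lay below Sham without overlap. Their median log2 fold change was -0.01, and 0 passed. The 4 tested mucin and sulfate users differed from each other, with a median of -0.18. Akkermansia lay below Sham, while Bilophila, which makes hydrogen sulfide from taurine, lay above it at 0.0139%, 0.00461% and 0.00789% against 0.0238%, 0.0209% and 0.0422%. Desulfovibrio, a sulfate reducer, held 0.121%, 0.0754% and 0.220% against 0.116%, 0.0331% and 0.0475%, and Mucispirillum, of the mucus layer, 0.0212%, 0.0112% and 0.0194% against 0.0714%, 0.0116% and 0.00440%, and in both the groups overlapped. None of the 4 passed edgeR.

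Enterobacteria and other Gram-negative opportunists had 5 tested genera and a median of 0.18. Of these 0 passed, 1 lay higher without overlap and 2 had the mean in the Sham range (Parasutterella and Rodentibacter), beside 26.0% and 42.2% of all genera. Escherichia-Shigella, facultative anaerobes of the gut, held 0.00423%, 0.00421% and 0.00154% of reads in Sham 1 to 3 and 0.0218%, 0.0151% and 0.00792% in SAH+Tet 1 to 3, above Sham in every library and 4.49-fold by the means, though below 0.03% throughout (log2 fold change 2.18 ± 0.64 (SE), edgeR adjusted p = 0.194). Helicobacter, spiral bacteria of the mucus, held 0.545%, 0.211% and 0.235% against 0.549%, 0.479% and 0.855%, with Sham 1 just below SAH+Tet 1 and above SAH+Tet 2. The 6 tested opportunistic Gram-positive cocci and clostridia had a median of -0.36, 0 calls, 1 below Sham without overlap (Turicibacter) and 1 with the mean in range (Erysipelatoclostridium), beside a median of -0.05 and shares of 26.0% and 42.2% over all genera. Clostridium sensu stricto 1, the genus in the narrow sense, held 1.66%, 2.95% and 1.54% against 0.685%, 1.95% and 0.630%, and Turicibacter, which modifies bile acids, 2.01%, 2.08% and 2.20% against 0.733%, 1.79% and 0.564%. Turicibacter was below Sham in all 3 libraries, with SAH+Tet 2 the nearest to it, and its edgeR adjusted p was 0.385.

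Of the other lists, the 6 tested Erysipelotrichia had a median log2 fold change of -0.66, with 2 below Sham without overlap (Turicibacter and Faecalibaculum), 4 with their mean in the Sham range and 0 calls, beside 14.9% lower and 42.2% in range over all genera. Of the 4 in range, Dubosiella held 0.324%, 0.0215% and 0.0444% against 0.399%, 0.115% and 0.0312% and Allobaculum 0.501%, 0.0277% and 0.0881% against 0.0345%, 0.0248% and 0.133%, both genera of the rodent gut that vary widely among the Sham libraries themselves. The 5 tested Coriobacteriia, small Actinobacteriota that transform bile acids and plant compounds, had a median of -1.20, 0 without overlap, 3 with the mean in range (26.0% and 42.2% over all genera) and 0 calls. Enterorhabdus, the most abundant, held 0.0597%, 0.110% and 0.0610% against 0.0865%, 0.0681% and 0.0484%, with its mean inside the Sham range and an interval of -1.12 to 0.94. Adlercreutzia, which makes equol from soy isoflavones, held 0.0119%, 0.0544% and 0.0152% against 0.0124%, 0.00987% and 0.0106%, DNF00809 0.00928%, 0.00923% and 0.0158% against 0.00983%, 0.00252% and 0.00220% and Coriobacteriaceae UCG-002 0.0202%, 0.00201% and 0.00692% against 0.00240%, 0% and 0.00792%. With 0 calls and a median of 4.78, 2 of the 11 aerobic Gram-positive genera found were tested, Corynebacterium and Rothia, a genus of the mouth, and Rothia, with its mean inside the Sham range and an interval of -1.29 to 1.34, held 0.0159%, 0.0329% and 0.0125% against 0.0240%, 0.0120% and 0.0207%. Of the reagent and environmental genera 5 were found and 1 tested: Brevundimonas, a water bacterium, held 0.00161%, 0.00140% and 0.00231% against 0.00306%, 0.00232% and 0.00308%, higher in SAH+Tet without overlap, with edgeR adjusted p = 0.534. Its Sham 3 and SAH+Tet 2 values were all but equal, and at such shares the lack of overlap rested on few reads. The summed share of these 5 genera was 0.00202% to 0.00327% in Sham and 0.0904%, 0.148% and 0.00308% in SAH+Tet, nearly all of it Psychrobacter in SAH+Tet 1 and 2.

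A list of 20 genera had been named from earlier results on haemorrhage alone against these same Sham libraries, so it is not independent evidence of any direction. In SAH+Tet 19 were found and 12 tested, and 0 passed edgeR. A mean inside the Sham range was found in 3 of the 12, beside 42.2% of all genera tested: Parasutterella, an asaccharolytic gut genus (0.147%, 0.0477% and 0.111% against 0.118%, 0.0437% and 0.108%), Blautia, an acetate maker (0.0551%, 0.419% and 0.0541% against 0.138%, 0.0513% and 0.0832%), and Candidatus Stoquefichus (0.00726%, 0.0201% and 0.0381% against 0.0103%, 0.0211% and 0.0163%). Escherichia-Shigella, the [Bacteroides] pectinophilus group and ASF356 lay above Sham without overlap, and Akkermansia and Turicibacter below. Corynebacterium, Staphylococcus, Lachnospiraceae NK4A136 group and Candidatus Arthromitus, the segmented filamentous bacteria (0.00323%, 0.00181% and 0.00423% against 0.00284%, 0.00503% and 0.00880%), overlapped with a mean outside the range. Of the 8 not tested, Collinsella was not found in these 6 libraries. Enterococcus, Weissella, Pediococcus, Proteus, Psychrobacter and Aerococcus had reads in SAH+Tet 1 and 2 and none in SAH+Tet 3, from 0.00580% in Enterococcus to 0.325% in Aerococcus, and at most 0.00135% in a Sham library. Jeotgalicoccus is given above. The median log2 fold change of the 12 was 0.63, beside -0.05 over all 154. Of the 12, 5 lay without overlap, beside 26.0% of all genera tested.

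Below the genus, single sequences were often found in 1 group alone. The 6 libraries held 5595 ASVs: 1686 with reads only in Sham, 1832 only in SAH+Tet and 2077 in both. The ASVs seen only in Sham took 7.57% to 9.00% of Sham reads, and those seen only in SAH+Tet 15.9%, 17.1% and 6.77% of SAH+Tet reads. Most reads belonged to shared ASVs, and the 418 ASVs found in all 6 libraries alone held 43.5% to 65.6% of a library. ASVs in all 3 Sham libraries and no SAH+Tet library numbered 226, and the reverse 65. Each of the 65 had to have a read in SAH+Tet 3, which held 1328 ASVs beside 2300 to 2557 in the other libraries. The 2 counts are therefore not on an equal footing, and they were not made without SAH+Tet 3. ASVs that were both found in SAH+Tet alone and members of the 13 families above took 6.02% and 9.56% of all reads in SAH+Tet 1 and 2 and 0.0101% in SAH+Tet 3.

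Of 1798 ASVs tested, 208 (11.6%) passed the edgeR test, 40 (2.22%) higher and 168 (9.34%) lower in SAH+Tet. Nearly all calls were ASVs absent from 1 group. Of 47 tested ASVs without a Sham read 39 passed, of 192 without an SAH+Tet read 166 passed, and of 1559 with reads in both groups 3 passed. An ASV absent from 1 group enters the test only through all 3 libraries of the other, so the filter had already fixed that it would differ, and those calls are a description of presence and absence. On the SAH+Tet side this required reads in SAH+Tet 3, the shallowest library. The counts higher and lower are therefore not on an equal footing. Without the filter edgeR called 240 ASVs, 126 higher and 114 lower. All 208 sat at adjusted p-values of 0.0459 to 0.0494, just under the threshold. With edgeR, 0 passed when Sham 1, Sham 2, Sham 3, SAH+Tet 1, SAH+Tet 2 or SAH+Tet 3 was left out, with lowest adjusted p-values of 0.0603 to 0.504 and 81 to 291 ASVs at an unadjusted p below 0.05. The filter was applied again each time and left 1390 to 1667 ASVs. It removed every ASV found only in the group that lost a library, so those ASVs could not be called. With the library number as a block 0 passed as well (lowest adjusted p = 0.652, 120 unadjusted). DESeq2 on all 6 libraries called 290 ASVs, the 208 among them. An unadjusted p below 0.05 was reached by 291 ASVs (16.2%), 65 (3.62%) higher and 226 (12.6%) lower.

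The libraries of the groups did not overlap in 537 ASVs (29.9%), 141 (7.84%) higher and 396 (22.0%) lower in SAH+Tet, and in 700 (38.9%) the SAH+Tet mean lay inside the Sham range. The 141 include the 47 tested ASVs without a Sham read, and the 396 the 192 without an SAH+Tet read. For these the filter had already fixed that the groups would not overlap. Each of the 141 had to have a read in SAH+Tet 3, the library with the fewest ASVs, so the 141 and the 396 are not on an equal footing. Without SAH+Tet 3 the share without overlap was 40.6% of 1667 ASVs, where fewer libraries make a lack of overlap easier. The 396 held 27.7% of Sham and 4.32% of SAH+Tet reads. The 141 held 1.31% and 17.5%, and 15.7%, 21.7% and 15.01% in SAH+Tet 1 to 3. Both sets were picked by their direction, so these sums are a description. The interval left out 0 for 441 ASVs (24.5%), held 0 and ran past 2-fold for 1357 (75.5%) and lay inside 2-fold for 0.

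The 3 called ASVs with reads in both groups, picked out after their values were seen, included the main sequence of Akkermansia and the only sequence of the [Bacteroides] pectinophilus group. Akkermansia ASV 12 held 1.09%, 5.44% and 1.80% of reads in Sham 1 to 3 and 0.00699%, 0.00445% and 0% in SAH+Tet 1 to 3, and fell 728-fold by the means (log2 fold change -9.40 ± 2.21 (SE), edgeR adjusted p = 0.0459), or 378-fold without Sham 2 and 1247-fold without SAH+Tet 1. In SAH+Tet 1 most of the remaining Akkermansia reads came from a different ASV. [Bacteroides] pectinophilus group ASV 52, the only ASV of its genus, rose 59.9-fold by the means (log2 fold change 5.81 ± 1.37 (SE), edgeR adjusted p = 0.0459), or 192-fold without Sham 2. Its counts are those of the genus, which did not pass among genera (edgeR adjusted p = 0.126), so it is not a second result. Muribaculaceae ASV 76 held 0.250%, 0.169% and 0.162% of reads in Sham 1 to 3 and 0.0138%, 0.0153% and 0.0273% in SAH+Tet 1 to 3 and fell 10.3-fold (log2 fold change -3.50 ± 0.84 (SE), edgeR adjusted p = 0.0476), while the family as a whole was not below Sham.

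The largest called ASVs were each absent from 1 group, so they are given by their values alone, with folds that are lower bounds against 3 reads per library. Muribaculaceae ASV 169 had no Sham read and held 0.239%, 0.353% and 0.348% of SAH+Tet reads, at least 527-fold higher. [Eubacterium] xylanophilum group ASV 158, of a xylan-degrading genus, was at least 154-fold higher, and Ruminococcus ASV 191 held 0.0437%, 0.152% and 0.0242% in SAH+Tet. In the other direction, Roseburia ASV 257 held 0.233%, 0.0251% and 0.264% of Sham reads and none in SAH+Tet, at least 204-fold lower. Clostridia UCG-014 ASV 234, ASV 273 and ASV 561, of an uncultured clostridial order, were at least 232-fold, 195-fold and 87.6-fold lower. ASV 243 and ASV 510 of Lachnospiraceae with no named genus were at least 150.4-fold and 95.7-fold lower. [Eubacterium] coprostanoligenes group ASV 324 held 0.104%, 0.174% and 0.142% in Sham and none in SAH+Tet, although the interval of the genus lay inside 2-fold.

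Several of the most abundant ASVs were far from Sham without passing the test. ASV 7 of Lachnospiraceae with no named genus held 4.86%, 2.02% and 5.68% of reads in Sham 1 to 3 and 0.132%, 0.491% and 0% in SAH+Tet 1 to 3, and Roseburia ASV 10 2.62%, 1.44% and 1.38% against 0.244%, 0.00697% and 0.0220%. Neither overlapped between the groups, with edgeR adjusted p-values of 0.575 and 0.218. Other ASVs of Roseburia and of Lachnospiraceae with no named genus took larger shares in SAH+Tet. The latter are a pool of 1106 ASVs, so its members need not belong to the same genus. Lachnospiraceae ASV 45, also with no named genus, held 0.101% ± 0.0369 in Sham and 1.62% ± 1.59 in SAH+Tet (SD, n = 3 each), highest in SAH+Tet 3, and its means differed 16.2-fold, or 7.07-fold without that library. Roseburia ASV 70, absent from Sham and from SAH+Tet 3, held 0.596% and 0.478% in SAH+Tet 1 and 2. Ruminococcus, whose mean as a genus lay inside the Sham range, held ASV 56 at 0.00282%, 0% and 0% against 1.45%, 1.25% and 0.0282% and ASV 24 at 0.723%, 0% and 1.94% against 0.00109%, 0.00155% and 0%. In Lactobacillus, ASV 1 and ASV 4 overlapped between the groups and ASV 6 was lower in each SAH+Tet library (2.27%, 1.98% and 2.46% against 1.32%, 1.60% and 0.329%).

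**Figure D4:**
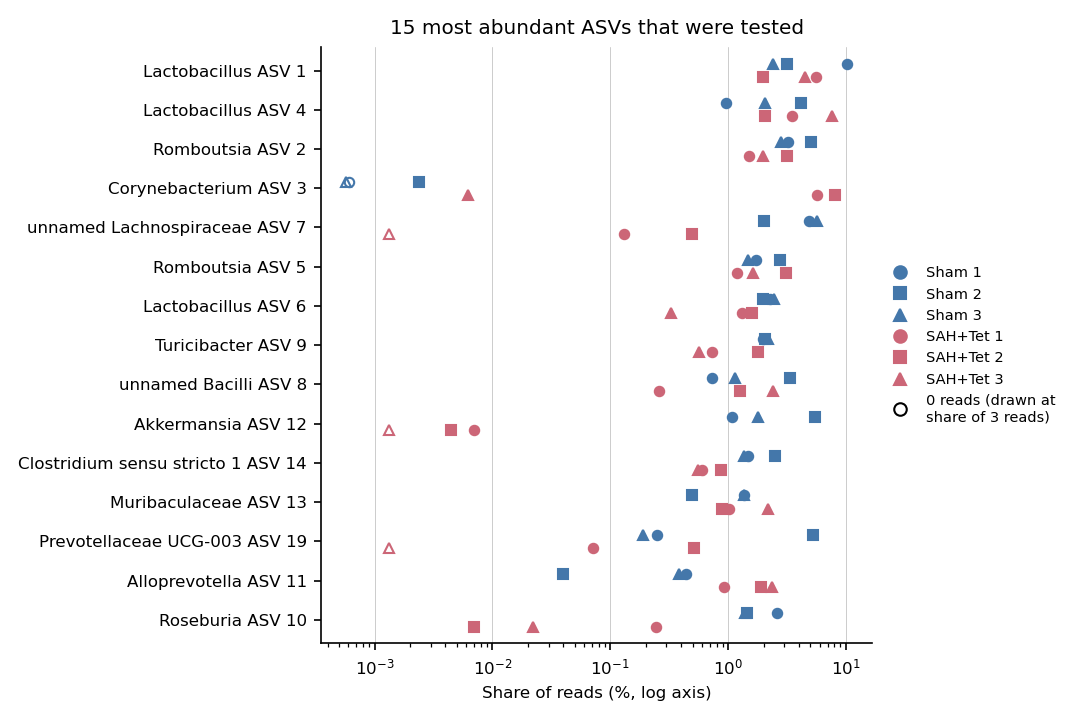
Share of reads (log axis) in each library for the 15 most abundant ASVs that were tested; open symbols are 0 reads, drawn at the share of 3 reads. Lactobacillus ASV 1 and ASV 4, both Romboutsia ASVs and Muribaculaceae ASV 13 overlap between the groups, while Lachnospiraceae ASV 7, Akkermansia ASV 12 and Roseburia ASV 10 are lower in every SAH+Tet library.

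The make-up of a family by its sequences was compared apart from its share. For each of the families with a mean share of at least 1%, the Bray-Curtis distance was computed over its own ASVs (0 for the same make-up, 1 for none shared). Pairs share libraries, so the distances are a description with no test. In Lachnospiraceae the 9 pairs between groups lay at 0.707 to 0.866, the 3 Sham pairs averaged 0.450 and the 3 SAH+Tet pairs 0.691. In Clostridia UCG-014 the values were 0.600 to 0.785 between groups, 0.476 in Sham and 0.695 in SAH+Tet. In both families the SAH+Tet libraries were nearly as far from each other as from Sham. Muribaculaceae and Lactobacillaceae were closer, with mean distances between groups of 0.394 and 0.273, and their means within Sham were 0.326 and 0.326. Peptostreptococcaceae, the family of Romboutsia, were at 0.0946 to 0.162 between groups and at most 0.0731 within a group, with a mean between groups of 0.129.

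Sequences present throughout 1 group and absent from the other were spread over these families. Of 1528 ASVs of Lachnospiraceae, 71 were in all 3 Sham libraries and no SAH+Tet library, and 25 the reverse. The counts were 34 and 17 of 661 in Oscillospiraceae, 18 and 6 of 406 in Ruminococcaceae, and 7 and 2 of 396 in Muribaculaceae. Of 337 ASVs of Clostridia UCG-014, 22 were in all Sham libraries alone and 0 in all SAH+Tet libraries alone. Over all 5595 ASVs the counts were 226 and 65, and these counts were not tested. Every count on the SAH+Tet side requires a read in SAH+Tet 3, the library with the fewest ASVs, which lowers that side.

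**Figure D5:**
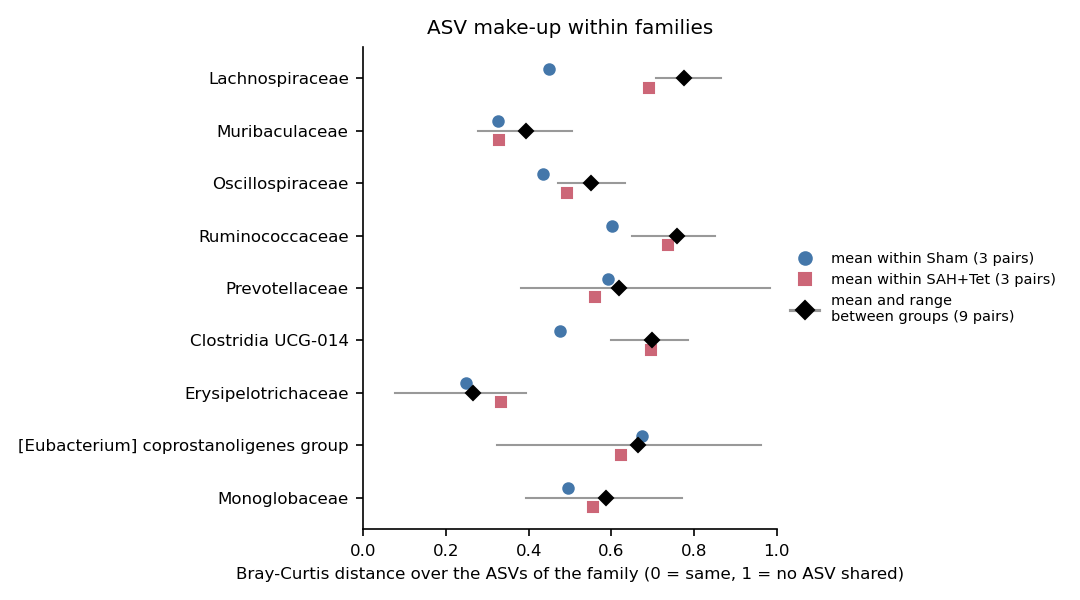
Bray-Curtis distance over the ASVs of each family with a mean share of at least 1% and at least 12 tested ASVs: mean of the 3 pairs within Sham (circles), mean of the 3 pairs within SAH+Tet (squares), and mean and range of the 9 pairs between groups (diamonds and lines). The between-group mean is highest in Lachnospiraceae and Ruminococcaceae and lowest in Erysipelotrichaceae and Muribaculaceae.

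Richness and diversity differed by less than the spread of the SAH+Tet libraries. After thinning to 227299 reads, Sham libraries held 2254, 2233 and 2349 ASVs, and SAH+Tet libraries 2492, 2399.6 and 1328 (means of 100 draws). SAH+Tet 1 and 2 were above every Sham library and SAH+Tet 3 far below. The difference of the means was -205.9 ASVs (exact permutation p = 1, two-sided; 3 against 3 cannot go below 0.1), and 166.6 without SAH+Tet 3. The Shannon index was 5.57 ± 0.168 in Sham and 5.54 ± 0.349 in SAH+Tet (SD, n = 3 each; exact permutation p = 1, two-sided), a difference of -0.0266 that became 0.151 without SAH+Tet 3 and 0.0669 without Sham 3.

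The ratio of Firmicutes to Bacteroidota, the main phyla of the gut, was 4.62, 3.10 and 5.28 in Sham and 3.38, 3.52 and 3.04 in SAH+Tet, a log2 difference of -0.36 (exact permutation p = 0.3, two-sided). Sham 2 lay among the SAH+Tet libraries. Actinobacteriota, the phylum of Corynebacterium and Bifidobacterium, held 0.865%, 0.674% and 0.430% in Sham and 7.92%, 11.1% and 0.147% in SAH+Tet. Verrucomicrobiota, the phylum of Akkermansia, averaged 2.86% and 0.0333%.

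Whole communities were compared by Bray-Curtis distance. Over ASV shares the pairs between groups averaged 0.626 (0.583 to 0.668, 9 pairs), pairs within Sham 0.451 (0.302 to 0.526) and pairs within SAH+Tet 0.553 (0.413 to 0.650). The group label accounted for 37.9% of the variation (exact permutation p = 0.1, the smallest this design allows). It accounted for 28.3% over genus shares (exact permutation p = 0.2) and for 26.5% over family shares (exact permutation p = 0.3). Over family shares the mean distances were 0.256 between groups, 0.223 within Sham and 0.243 within SAH+Tet. SAH+Tet 3 was 0.150 from Sham 1 by families, less than from SAH+Tet 1 (0.213) or SAH+Tet 2 (0.345), while by ASVs the same distances were 0.643, 0.595 and 0.650.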

How the data were processed

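The deposited values were counts: per the labels' protocols and the file headers, unscaled 16S reads per ASV with its lineage in 1 table for all libraries, whose columns equal the per-sample tables (12 of 12). The submitters' processing notes name fastp and cutadapt; primers, denoiser and taxonomy database were not given in the sources used here. They set how many ASVs are found and how far they are named (70.5% to 85.9% of reads carried a genus name). Of 7240 ASVs, 2 of Eukaryota (0 to 5 reads a library) were left out.

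Counts were tested with edgeR 4.0.16 (quasi-likelihood, TMM, group as the only term, 6 libraries) in R 4.3.3, for features with at least 10 reads in at least 3 libraries, with Benjamini-Hochberg adjustment over all features of a rank. The SE is the absolute log2 fold change over the square root of F. Intervals came from limma-trend (limma 3.58.1, prior count 2) on log2 CPM. DESeq2 1.42.0 and limma on centred log-ratio values were alternatives, beside other filters, library-size scaling, thinning and leaving out each library (for folds of mean shares, added after the data were seen). The scripts were tested on simulated data. Shares, distances and permutation tests used Python 3.11.15.

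Named were families of at least 1% mean share, the 10 largest non-overlapping genera a direction at 0.05% or more, the 10 most abundant genera, the 4 most abundant of each list, the list of 20, and the largest ASVs. Members and lists were chosen with earlier results of these data known. Other families, genera and the most abundant ASVs in the text were added after their values were seen.

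Libraries of both groups carry the numbers 1 to 3. At the family level the deviations of same-numbered libraries correlated at 0.157, 0.187 and 0.159, which meets the rule for pairing (over 0.1 in each); a fit with the number as a block also called 0 families. No other source of pairing is given.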

Additional observations from a re-analysis of the deposited data

How the results depend on the processing

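With 3 libraries a group the calls changed with the tool, the filter and single libraries; the cause was not tested. edgeR called 0 families, DESeq2 14, limma on centred log-ratios 2 and edgeR without the low-count filter 9 (0 to 7 leaving out each library). For genera the counts were 0, 17 with DESeq2, and 1 each with limma on centred log-ratios and limma-trend (0 to 3). Of 208 ASVs called, 24 remained called with at least 100 reads in 3 libraries, where 437 ASVs were tested. Thinned to the shallowest library 131 were called. Leaving out any library 0 were called, but the filter then removed every ASV found only in the group that lost a library. Without the filter 240 were called (126 higher, 114 lower), of which 78 were among the 208.

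With the replicate block 0 families, 0 genera and 0 ASVs were called (lowest adjusted p 0.652 for ASVs); same-numbered libraries correlated at -0.042 to 0.234 over genera and 0.040 to 0.111 over ASVs, so there the pairing is not established. Each library correlated best with its own number over families and ASVs. The block could not change the differences of -205.9 ASVs, -0.0266 in the Shannon index and -0.36 in log2 Firmicutes to Bacteroidota. The mean difference of same-numbered libraries always equals the difference of the group means. Only the p can change, and for log2 Firmicutes to Bacteroidota it was 0.5 (exact sign-flip test within numbers).

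Observed richness turned from -205.9 to 5.49 when genera replaced ASVs, and ranged from -415.2 to 166.6 leaving out each library. The Shannon index turned to 0.0239 over genera and ranged from -0.197 to 0.151. Without the filter the share of features without overlap was 14.7% for families, 13.8% for genera and 10.7% for ASVs. Leaving out each library, Prevotellaceae ranged from -0.0086 (without SAH+Tet 2) to 1.03 and Allobaculum from -2.90 to 0.15 (without Sham 1) on the log2 scale. Of 70 named families and genera tested, 26 changed sign in at least 1 of 15 other settings, and 24 of these were within 1 SE of 0 in the reported fit.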

Other observations

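Both archaeal families tested lay below Sham. Beside Methanobacteriaceae, the family of Methanosphaera, the methyl-reducing Methanomethylophilaceae held 0.00444%, 0.00682% and 0.00539% of reads in Sham 1 to 3 and 0.000655%, 0% and 0% in SAH+Tet 1 to 3, with no overlap (DESeq2 called both archaeal families, edgeR neither, adjusted p = 0.227 and 0.156). The Methanomethylophilaceae had 22, 34 and 28 reads in Sham 1 to 3 and 3, 0 and 0 in SAH+Tet 1 to 3. They passed the low-count filter through the Sham libraries alone, so the filter had already fixed that they would lie lower. Their lack of overlap and their test results are therefore a description only. Coriobacteriales with no named family held 0.0186%, 0.0277% and 0.0269% against 0.00699%, 0.00522% and 0.00352%, also with no overlap (edgeR adjusted p = 0.151). The [Eubacterium] ruminantium group, xylan degraders, held 2.37%, 0.356% and 2.44% against 0.406%, 0.00329% and 0.0955%; SAH+Tet 1 lay just above Sham 2 and the other SAH+Tet libraries below.

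Several lineages were absent or lowest in SAH+Tet 3. Spirochaetaceae, helical bacteria, held 0.960%, 0.139% and 1.19% against 0.667%, 0.419% and 0.00220%. Fibrobacteraceae, cellulose degraders, held 0.00766%, 0.125% and 0.00385% against 0.0862%, 0.0517% and 0%, and Prevotella 1.12%, 1.01% and 0.279% against 2.08%, 1.55% and 0.0462%. Prevotellaceae UCG-003 held 0.480%, 6.89% and 0.346% against 0.888%, 1.11% and 0%, with Sham 2 the highest. In each, SAH+Tet 1 and 2 lay within the range of the Sham libraries or above it. Acidaminococcaceae, amino acid fermenters, were near the limit of a count of 0 in the Sham libraries and SAH+Tet 1 and held 0.171% and 0.264% in SAH+Tet 2 and 3; they did not pass the filter on low counts.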
